A study of Mus with 10 samples.

Results

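The AP-1 family factors described here were 10 genes defined by their symbols: *Fos*, *Fosb*, *Fosl2*, *Jun*, *Junb*, *Jund*, *Batf*, *Batf3*, *Atf3* and *Maff*. All 10 had a row among the 24564 genes of the deposited count table, and 9 passed the filter on low counts that left 11463 genes for testing. *Batf3* did not pass. The study asked what changes in type 1 innate lymphoid cells (ILC1s, tissue-resident lymphocytes related to natural killer cells) when the activating receptor NKp46, the product of *Ncr1*, is missing. It sequenced polyadenylated RNA of freshly sorted ILC1s from mouse liver in 5 Ncr1+/+ libraries and 5 Ncr1gfp/gfp libraries, each made from 2 ng of RNA. No library came from cells cultured with a cytokine or antibody, so all values describe freshly sorted cells.

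The mice were of the C57BL/6 strain and 6 to 8 weeks old, and the study's methods call them male or female. In Ncr1gfp/gfp mice the sequence of *gfp* stands in place of *Ncr1* on both chromosomes, and the allele is present in every cell of the animal rather than in ILC1s alone. Both groups were gated as NK1.1+, CD49a+, CD49b- and lineage-negative cells, but Ncr1+/+ cells were taken with an antibody that binds NKp46 and Ncr1gfp/gfp cells by GFP. The study used the same antibody clone to stimulate ILC1s in other experiments. Whether staining with it before the sort changed any transcript was not tested. The gate and any effect of this antibody therefore differed between the genotypes and cannot be told apart from them. The labels do not say whether each library came from a separate mouse, and the study speaks of RNA pools, so every p-value below measures only the spread between libraries.

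AP-1 is a dimer of proteins that share a basic leucine zipper, a helix that grips DNA at one end and a partner protein at the other. Fos proteins cannot pair with each other and bind DNA stably only with a Jun protein, whereas Jun proteins can also pair among themselves. *Fos*, *Fosb*, *Jun* and *Junb* are immediate early genes: their transcription starts within minutes of a signal through MAP kinases, calcium or cytokine receptors, needs no new protein, and ends quickly because the transcripts are short-lived. The same genes are known to respond to tissue dissociation and cell sorting. In lymphocytes, AP-1 acts at cytokine and cytokine receptor genes, often together with NFAT, and Batf proteins act with Jun and IRF proteins.

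The libraries held 15796253 to 22623133 counts, so that 3 counts corresponded to 0.132 to 0.190 CPM, the scale on which each count is divided by its library total and TMM factor. *Ncr1* itself had 1913 to 2144 CPM in the Ncr1+/+ libraries and 142 to 356 CPM in the Ncr1gfp/gfp libraries, so each library followed its label. ILC1 markers including *Itga1*, *Tnfsf10*, *Cd200r1*, *Cxcr6* and *Tbx21* were detected in all 10 libraries. Transcripts of 4 Y-linked genes had at least 41.7 CPM in every library and *Xist* at most 1.09 CPM, the pattern of male cells, so these libraries do not represent female mice. Over all 11463 genes, the edgeR quasi-likelihood test with Benjamini-Hochberg adjustment called 84 genes (0.733%) at an adjusted p below 0.05 with a fold change above 1.5 or below 0.7. Of these, 61 (0.532%) were lower and 23 (0.201%) higher in Ncr1gfp/gfp ILC1s. Among 8 ILC1 markers tested, *Il7r* was called lower in Ncr1gfp/gfp libraries, with means of 166 CPM in Ncr1+/+ and 84.6 CPM in Ncr1gfp/gfp. *Itga1* was higher at an adjusted p below 0.05 (779 and 971 CPM) but was not called. At an unadjusted p below 0.05 in the edgeR test, 4 of the 8 were lower and 2 higher, where 11.4% of all tested genes reached such a value.

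Among the 9 AP-1 genes tested, 1 was called, *Fos*, and it was lower in Ncr1gfp/gfp ILC1s. With single libraries left out the number called ran from 0 to 3. *Junb* was also lower at an adjusted p below 0.05, which 1.35% of all tested genes reached (0.785% with a lower level), but its fold change missed the limit. Log2 fold changes were below 0 for 8 of the 9 genes, against 49.3% of all tested genes, and *Fosl2* was the exception. The median log2 fold change was -0.39 over the 9 genes and 0.00 over all tested genes. For none of the 9 did the libraries of the genotypes separate completely, whereas 3.11% of all tested genes showed such a separation. RNA was measured in bulk, so a smaller number of cells with a transcript and a smaller amount per cell cannot be told apart.

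**Figure D1:**
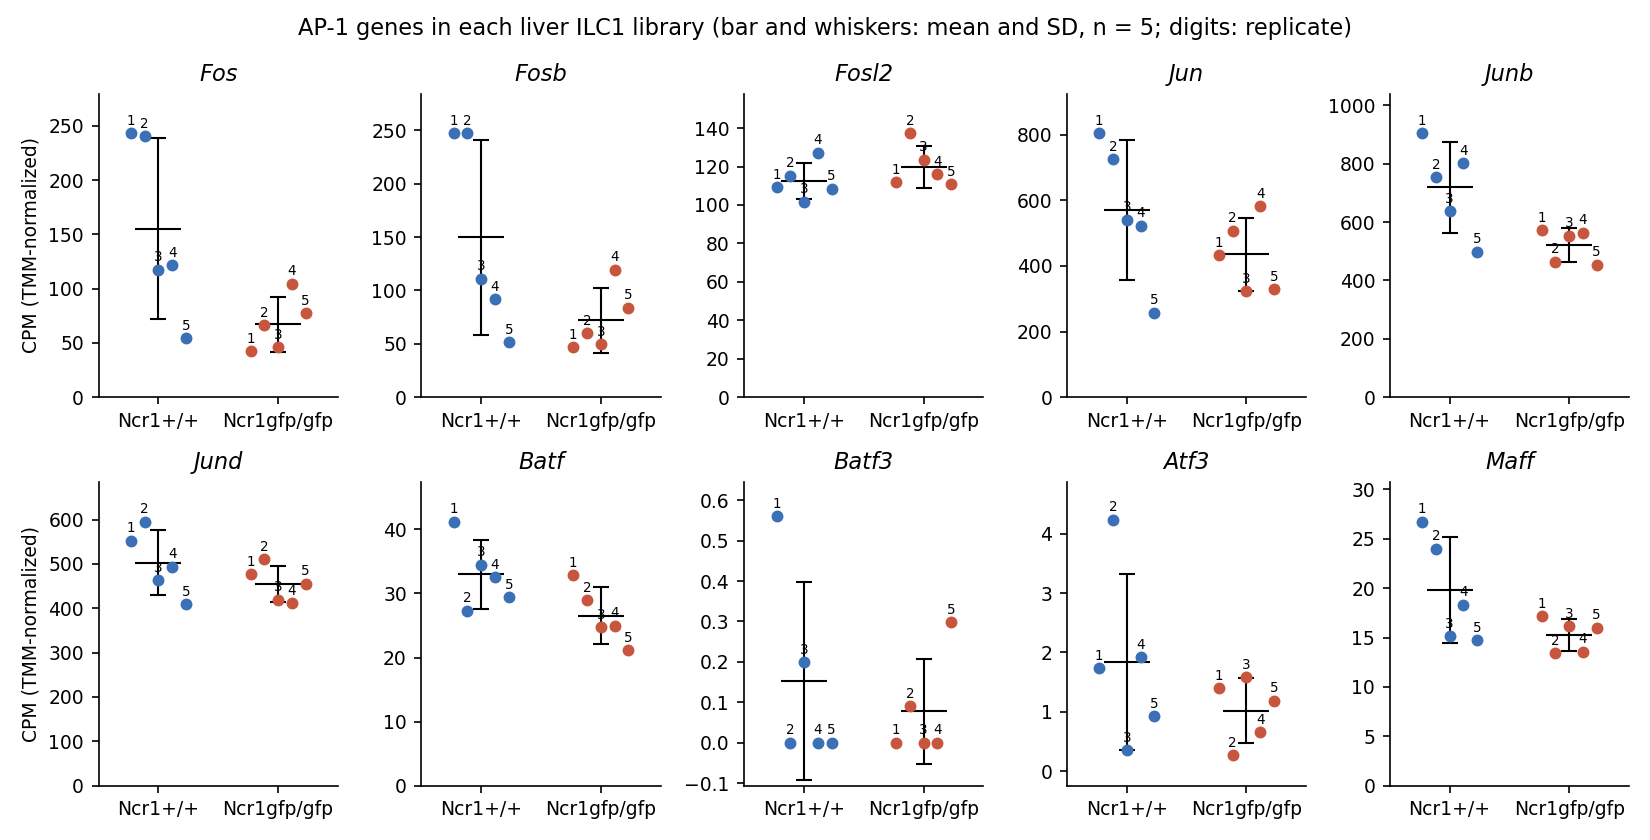
TMM-scaled CPM of the 10 AP-1 genes (vertical axes, a separate scale for each gene) in the 5 Ncr1+/+ libraries (blue) and the 5 Ncr1gfp/gfp libraries (red), with digits for the replicate and a bar with whiskers for the mean and SD. For *Fos*, Ncr1+/+ replicates 1 and 2 lie above 240 CPM and replicate 5 at 54.2 CPM, within the Ncr1gfp/gfp range of 42.6 to 104.5 CPM.

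*Fos* encodes c-Fos, the founding Fos protein. In the deposited table it is placed at chromosome 12, 86814851 to 86818219 (plus strand), with 2093 bases of exon. The table names no genome build, while the study's methods give mm10 (GRCm38) as the genome used for mapping. None of the 10 AP-1 genes starts at the position that the GRCm38.p6 annotation gives, although all 10 are on the same chromosome there. In Ncr1+/+ replicates 1 to 5, *Fos* had 243, 240.5, 117, 122 and 54.2 CPM. In Ncr1gfp/gfp replicates 1 to 5 it had 42.6, 66.1, 45.8, 104.5 and 77.2 CPM. Thus 4 of the 5 Ncr1+/+ libraries lay above the highest Ncr1gfp/gfp library, and Ncr1+/+ replicate 5 lay inside the Ncr1gfp/gfp range. The mean fell from 155 ± 83.4 CPM (SD, n = 5) to 67.2 ± 25.3 CPM (SD, n = 5), to 43.3% of the Ncr1+/+ level. The log2 fold change was -1.21 with an SE of 0.29, a 95% interval of -1.81 to -0.60 and an adjusted p of 0.0377 in edgeR's quasi-likelihood test.

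The call for *Fos* depended on single libraries in the edgeR test, while the direction did not. It was lost when Ncr1gfp/gfp replicate 1, 2, 3 or 5 was left out (adjusted p of 0.0918, 0.0860, 0.0966 and 0.0569) and when Ncr1+/+ replicate 1, 2 or 4 was left out (adjusted p of 0.125, 0.114 and 0.0522). The log2 fold change stayed between -1.43 and -0.99 over these fits, and the lowest adjusted p, 0.00166, came without Ncr1+/+ replicate 5. DESeq2 gave an adjusted p of 0.111, with an SE of 0.42 beside the 0.29 of edgeR. For limma-voom with library weights the adjusted p was 0.173.

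*Fosb*, whose product FosB pairs with Jun proteins as c-Fos does, had high and low values in the same libraries as *Fos*. It is placed at chromosome 7, 19888045 to 19895394 (minus strand), with 3776 bases of exon, 15.6 Mb from *Ncr1*. Its levels in Ncr1+/+ replicates 1 to 5 were 247, 247, 111, 91.6 and 51.6 CPM. In Ncr1gfp/gfp replicates 1 to 5 they were 47.1, 59.9, 49.8, 119.5 and 83.9 CPM. The same pair of Ncr1+/+ libraries stood highest as for *Fos*, Ncr1+/+ replicate 5 was again low, and Ncr1gfp/gfp replicate 4 was again the highest of its genotype. Here 2 of 5 Ncr1+/+ libraries lay above the highest Ncr1gfp/gfp library. The means were 149.8 ± 91.6 and 72.0 ± 30.2 CPM (SD, n = 5 each), and the log2 fold change of -1.06 (SE 0.32, 95% interval -1.72 to -0.40) had an adjusted p of 0.116 in edgeR, short of the threshold. Without Ncr1+/+ replicate 5 the edgeR adjusted p was 0.0141 and *Fosb* was called.

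*Fosl2* encodes Fra-2, a Fos protein without the strong activation domain of c-Fos, and it showed neither the difference nor the spread of its relatives. The gene is placed at chromosome 5, 32438845 to 32460212 (plus strand), with 5863 bases of exon. It had 109, 115, 102, 127 and 108.5 CPM in Ncr1+/+ replicates 1 to 5 and 112, 137, 124, 116 and 111 CPM in Ncr1gfp/gfp replicates 1 to 5. The ranges largely overlapped, and the highest Ncr1+/+ library was 1.25 times the lowest, against 4.5 times for *Fos* and 4.8 times for *Fosb*. On the log2 scale the difference was 0.09 (SE 0.08) with an adjusted p of 0.732 in edgeR. Its 95% interval ran from -0.06 to 0.25, which leaves out any decrease of the size measured for *Fos*.

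*Jun* encodes c-Jun, the main partner of c-Fos, and is a gene of a single exon: its span at chromosome 4, 94715727 to 94718913 (minus strand), equals its exon length of 3187 bases. It had 805, 727, 541.5, 522 and 258 CPM in Ncr1+/+ replicates 1 to 5. In Ncr1gfp/gfp replicates 1 to 5 it had 433.5, 508, 323.5, 582 and 329 CPM. Ncr1+/+ replicates 1 and 2 were above every Ncr1gfp/gfp library and Ncr1+/+ replicate 5 was the lowest of all 10. The means were 571 ± 212 and 435 ± 112 CPM (SD, n = 5 each). On the log2 scale the difference of -0.39 (SE 0.20, 95% interval -0.81 to 0.03) did not pass the edgeR test (adjusted p of 0.489).

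*Junb* encodes JunB, a Jun protein that activates more weakly than c-Jun and can oppose it. Its single exon of 1840 bases is placed at chromosome 8, 87500808 to 87502647 (minus strand). The Ncr1+/+ replicates 1 to 5 had 904.5, 754, 637, 801 and 498 CPM, and the Ncr1gfp/gfp replicates 1 to 5 had 571, 465, 554, 563 and 454 CPM. As for *Fos*, 4 of 5 Ncr1+/+ libraries lay above all Ncr1gfp/gfp libraries and replicate 5 lay among them. The mean was 719 ± 156 CPM in Ncr1+/+ and 521 ± 57.02 CPM in Ncr1gfp/gfp libraries (SD, n = 5 each). The log2 fold change of -0.46 (SE 0.11, 95% interval -0.69 to -0.24) had an adjusted p of 0.0334 in edgeR, and the fold of 0.725 did not reach the limit of 0.7. Leaving out Ncr1+/+ replicate 5 moved the log2 fold change to -0.57 with an adjusted p of 0.000765, which made the call. The adjusted p of *Junb* in edgeR also stayed below 0.05 without Ncr1gfp/gfp replicate 1 or Ncr1+/+ replicate 3, but it was above 0.05 without any one of the other 7 libraries, reaching 0.104 at most. DESeq2 gave *Junb* an adjusted p of 0.0964 and limma-voom one of 0.0614, and without Ncr1gfp/gfp replicate 3 and Ncr1+/+ replicate 1 it was 0.125 in edgeR. Other edgeR settings gave lower values: 0.00523 with the replicate number as a block, 0.00587 in the likelihood ratio test and 0.000168 without the filter. With at least 10 counts in every library it was 0.0205. The fold missed the limit of 0.7 in each of these settings. Its log2 fold change ranged from -0.57 to -0.37 over these fits.

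*Jund* encodes JunD, which most cells make at a steady level. Its single exon of 2878 bases is placed at chromosome 8, 73221638 to 73224515 (plus strand), 14.3 Mb from *Junb*. It had 553, 596, 463, 494 and 409 CPM in Ncr1+/+ replicates 1 to 5, and 477, 511, 420, 412 and 455 CPM in Ncr1gfp/gfp replicates 1 to 5. The groups overlapped over most of their range, with Ncr1+/+ replicate 5 the lowest of all 10 libraries. The log2 fold change was -0.14 (SE 0.08, adjusted p of 0.537 in edgeR), with a 95% interval of -0.31 to 0.03.

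*Batf* encodes a small protein of the family that pairs with Jun proteins and acts with IRF4 in T cells. It is placed at chromosome 12, 87027670 to 87050037 (plus strand), with 904 bases of exon, 209.5 kb from *Fos*. It had 41.2, 27.3, 34.5, 32.6 and 29.4 CPM in Ncr1+/+ replicates 1 to 5, and 32.9, 29.0, 24.8, 25.0 and 21.1 CPM in Ncr1gfp/gfp replicates 1 to 5. The ranges overlapped, and the order of libraries differed from that of *Fos*: Ncr1+/+ replicate 2, high for *Fos*, was the lowest of its genotype for *Batf*. The genotypes differed by -0.31 on the log2 scale (SE 0.13), with an adjusted p of 0.328 in edgeR and a 95% interval of -0.58 to -0.04. *Batf3*, known from the development of a dendritic cell subset, is placed at chromosome 1, 192922293 to 192932822 (plus strand). Its counts were 10, 0, 4, 0 and 0 over the Ncr1+/+ replicates and 0, 2, 0, 0 and 5 over the Ncr1gfp/gfp replicates. With 7 of 10 libraries at 3 counts or fewer, no difference in *Batf3* was detectable at this depth.

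*Atf3* and *Maff* are stress-induced genes of neighbouring branches of the zipper family. *Atf3*, whose product often represses, is placed at chromosome 1, 192994176 to 193007212 (minus strand), 61.4 kb from *Batf3*. It was low, with 1.74, 4.24, 0.350, 1.92 and 0.925 CPM in Ncr1+/+ replicates 1 to 5 and 1.40, 0.274, 1.59, 0.654 and 1.19 CPM in Ncr1gfp/gfp replicates 1 to 5. Ncr1+/+ replicates 1, 2 and 4 lay above all Ncr1gfp/gfp libraries and the other two within their range, and the log2 fold change of -0.85 (SE 0.61, adjusted p of 0.673 in edgeR) had a 95% interval of -2.12 to 0.41. *Maff* encodes a small Maf protein, which lacks an activation domain, and is placed at chromosome 15, 79177051 to 79189506 (plus strand). It had 26.7, 24.0, 15.2, 18.3 and 14.8 CPM in Ncr1+/+ replicates 1 to 5 and 17.1, 13.4, 16.2, 13.6 and 16.0 CPM in Ncr1gfp/gfp replicates 1 to 5. Ncr1+/+ replicates 1, 2 and 4 were above all Ncr1gfp/gfp libraries, and the other two lay within their range. A log2 fold change of -0.38 (SE 0.16, 95% interval -0.71 to -0.04) had an adjusted p of 0.349 in edgeR.

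**Figure D2:**
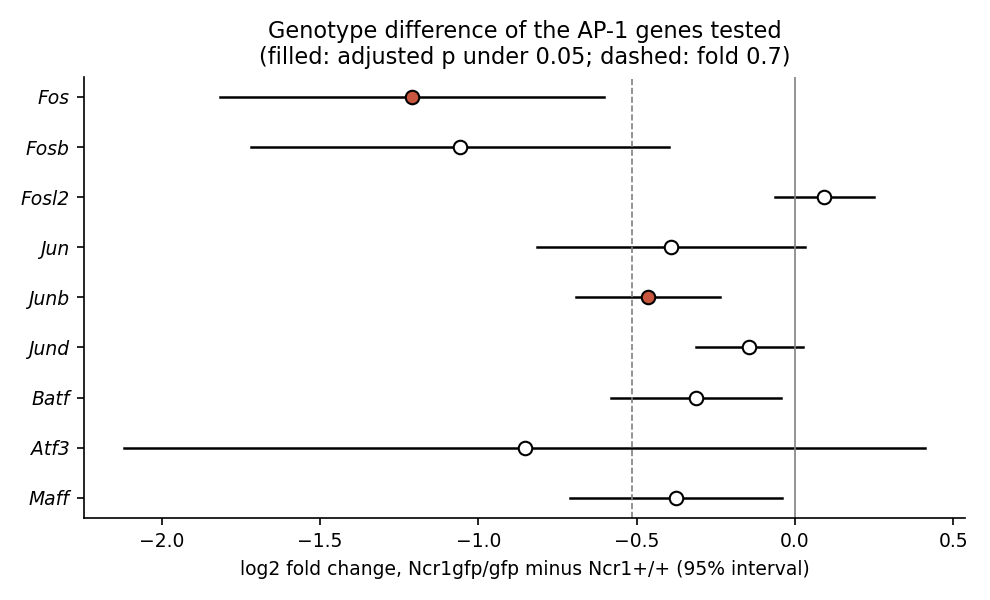
Log2 fold change of the 9 AP-1 genes tested, Ncr1gfp/gfp minus Ncr1+/+ (horizontal axis), with 95% intervals from the edgeR fit over all 10 libraries. Points are filled where the adjusted p was below 0.05, and the dashed line marks a fold of 0.7. *Fos* at -1.21 and *Junb* at -0.46 are filled, and only *Fos* lies beyond the dashed line as a filled point.

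Unadjusted p-values below 0.05 were found for 5 of the 9 genes tested, *Fos*, *Fosb*, *Junb*, *Batf* and *Maff*, all lower in Ncr1gfp/gfp ILC1s. Among all tested genes, 11.4% reached such a value and 5.91% did so with a lower level. After adjustment over all tested genes, *Fosb*, *Batf* and *Maff* did not pass. The 9 genes share the same 10 libraries, and *Fos* and *Fosb* varied together within genotypes. Neither these 5 genes nor the 8 with a log2 fold change below 0 are therefore independent observations.

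The AP-1 genes differed widely in abundance, which can be compared between genes as CPM per kb of exon. *Junb* was the most abundant in both genotypes, with 391 ± 85.0 CPM per kb in Ncr1+/+ and 283 ± 31.0 CPM per kb in Ncr1gfp/gfp libraries (SD, n = 5 each), and it was above the next gene in all 10 libraries. *Jun* (179 ± 66.7 CPM per kb) and *Jund* (175 ± 25.5 CPM per kb) came next in Ncr1+/+ libraries and were not separated, since *Jun* was above *Jund* in 3 of 5. In Ncr1gfp/gfp libraries *Jund*, at 158 ± 14.3 CPM per kb, was above *Jun*, at 137 ± 35.3 CPM per kb, in 4 of 5. *Fos* followed with 74.3 ± 39.9 CPM per kb in Ncr1+/+ and 32.1 ± 12.1 CPM per kb in Ncr1gfp/gfp libraries.

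Below *Fos* the order of levels per kb differed between the genotypes. In Ncr1+/+ libraries *Fosb* (39.7 ± 24.3 CPM per kb) had a higher mean than *Batf* (36.5 ± 5.94 CPM per kb) but exceeded it in only 2 of 5. In Ncr1gfp/gfp libraries *Fosb* (19.1 ± 8.01 CPM per kb) stood behind *Batf* (29.4 ± 4.98 CPM per kb) and *Fosl2* (20.5 ± 1.88 CPM per kb), although *Fosl2* exceeded *Fosb* in only 3 of 5. *Fos* and *Batf* were not separated in Ncr1gfp/gfp libraries, where *Fos* was higher in 2 of 5. *Maff*, *Atf3* and *Batf3* closed the order in both genotypes, at 7.62, 0.928 and 0.214 CPM per kb in Ncr1+/+ libraries.

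**Figure D3:**
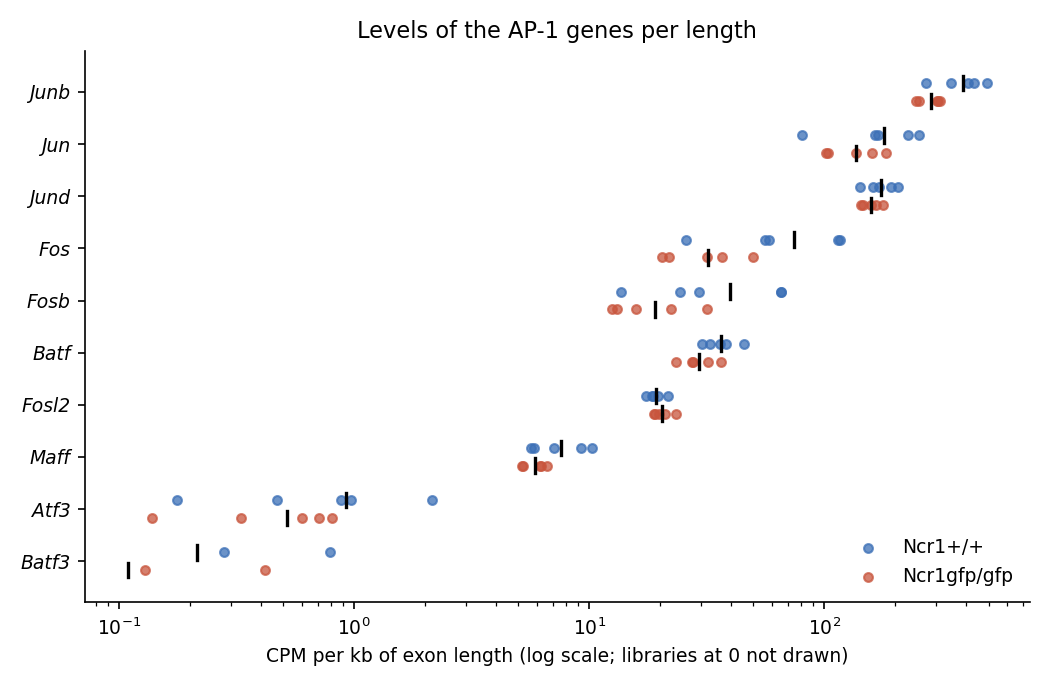
Level of each AP-1 gene per length, as CPM per kb of exon on a log axis, with a point for each Ncr1+/+ (blue) and Ncr1gfp/gfp (red) library and a black bar at the mean of 5 libraries; libraries at 0 are not drawn. *Junb* leads in both genotypes, and the *Fos* and *Fosb* points of Ncr1+/+ libraries are the most spread of the genes above 10 CPM per kb.

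Summed by family, the transcripts of the Jun genes made up most of the per-kb level of the 10 genes. *Jun*, *Junb* and *Jund* held 81.2% ± 2.90 of the sum in Ncr1+/+ and 84.3% ± 1.89 in Ncr1gfp/gfp libraries (SD, n = 5 each). *Fos*, *Fosb* and *Fosl2* held 13.8% ± 3.67 and 10.4% ± 2.51. The ranges of the Fos family share, 9.83 to 18.4% and 7.33 to 13.2%, overlapped. Within that family the per-kb ratio of *Fos* to *Fosl2* was 3.88 ± 2.09 in Ncr1+/+ and 1.59 ± 0.638 in Ncr1gfp/gfp libraries. Ncr1+/+ replicate 5, at 1.40, lay inside the Ncr1gfp/gfp range of 1.04 to 2.52, and the difference was not tested. The ratio of *Fos* to *Fosb* lay between 1.58 and 2.40 in all 10.

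The spread between libraries of one genotype was large for *Fos*, *Fosb* and *Jun*, near the middle of all tested genes for *Jund* and small for *Fosl2*. The SD of log2 CPM within genotypes placed *Atf3* at the 95.7th, *Fosb* at the 91.6th, *Fos* at the 90.6th and *Jun* at the 85.3rd percentile of all tested genes, against the 66.1st for *Junb*, the 47.0th for *Jund* and the 26.4th for *Fosl2*. The biological coefficient of variation that edgeR estimated was 0.312 for *Fos* and 0.342 for *Fosb*, where genes of their abundance followed a trend of 0.0904 and 0.0905. It was 0.225 for *Jun* (trend 0.0774), 0.127 for *Junb* (trend 0.0766), 0.0974 for *Jund* (trend 0.0777) and 0.0878 for *Fosl2* (trend 0.0899). For *Atf3*, which had 6 to 96 counts in a library, it was 0.599 beside a trend of 0.504 for genes as low. *Fos* varied more on the log2 scale among Ncr1+/+ libraries (SD 0.90) than among Ncr1gfp/gfp libraries (SD 0.54), a difference that was not tested.

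This spread was shared by *Fos* and *Fosb* in both genotypes, and by *Jun* more closely in Ncr1+/+ libraries. After each library's log2 CPM was centred on the mean of its genotype, *Fos* and *Fosb* had a Pearson r of 0.981 over the 10 libraries (adjusted p of 0.00417, two-sided exact permutation of libraries within genotypes, 12 relations) and a Spearman rho of 0.95 (adjusted p of 0.015, exact permutation). Without the libraries farthest from the median of *Fos*, Ncr1+/+ replicates 1 and 2, r was 0.964. *Fos* and *Jun* had an r of 0.857 (unadjusted p of 0.00660, adjusted p of 0.0396, exact permutation) and 0.743 without those libraries, but their rho of 0.70 did not pass (adjusted p of 0.313, exact permutation). Taken separately, *Fos* and *Jun* had an r of 0.980 in Ncr1+/+ and 0.504 in Ncr1gfp/gfp libraries. For *Fos* and *Fosb* these values were 0.985 and 0.972.

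The other relations of *Fos* did not pass after adjustment. Pearson r was 0.636 with *Jund*, 0.611 with *Junb*, 0.576 with *Maff*, 0.250 with *Atf3*, 0.07 with *Fosl2* and -0.02 with *Batf*. Without Ncr1+/+ replicates 1 and 2 the values for *Jund*, *Junb* and *Maff* were 0.209, 0.365 and -0.19. The genotypes differed in these relations. Taken separately, r was 0.970, 0.876 and 0.905 in Ncr1+/+ libraries. In Ncr1gfp/gfp libraries it was -0.281, -0.294 and -0.725, and this difference was not tested. The total count of a library had an r of 0.204 with *Fos* and the mean of the hepatocyte markers one of -0.10. All values share the same 10 libraries and their scaling, and scaling by library totals alone left the same number of relations, 2, past the threshold.

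**Figure D4:**
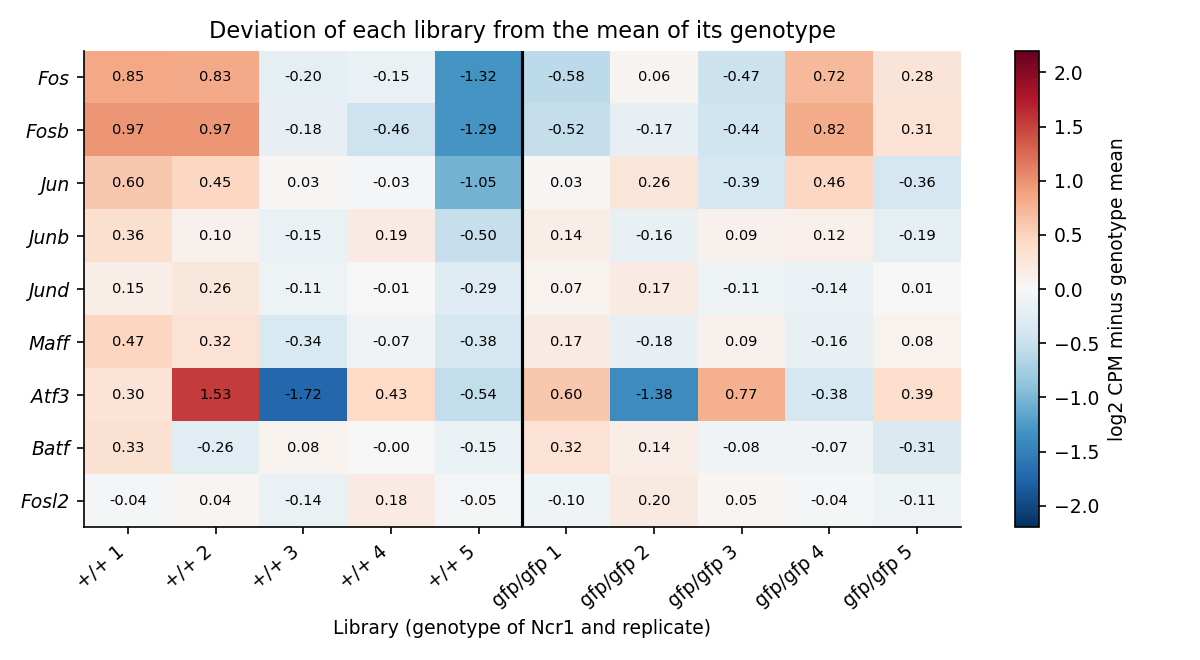
Log2 CPM of 9 AP-1 genes in each library minus the mean of that library's genotype (colour and printed value), with Ncr1+/+ libraries left and Ncr1gfp/gfp libraries right of the line. *Fos*, *Fosb* and *Jun* share high values in Ncr1+/+ replicates 1 and 2 and Ncr1gfp/gfp replicate 4 and low values in Ncr1+/+ replicate 5, where *Fosl2* stays near 0.

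Genes whose pattern within genotypes was most like that of *Fos* were sought among 8254 genes with a mean of at least 10 CPM. *Fosb* came first, followed by *Ulk2* (r of 0.973), *Dusp1* (0.939), *Ncoa1* (0.930) and *Zbtb21* (0.928). These correlations over 10 libraries are a description, as the genes are the top of 8254. *Dusp1* encodes a phosphatase that switches off MAP kinases and is itself an immediate early gene. It had 392, 302, 207, 210 and 118 CPM in Ncr1+/+ replicates 1 to 5, and 128 to 172 CPM in Ncr1gfp/gfp libraries, with a log2 fold change of -0.72 (SE 0.19, adjusted p of 0.0685 in edgeR). For *Ulk2*, *Ncoa1* and *Zbtb21* the differences between genotypes on the log2 scale were 0.18, -0.06 and -0.08, none past the edgeR test (adjusted p of 0.331, 0.849 and 0.839). *Jun* ranked 31st in likeness, *Jund* 475th, *Junb* 554th and *Fosl2* 3791st.

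Genes related to AP-1 were counted in the same edgeR fit from lists of other bZIP genes, upstream kinases and SRF factors, other immediate early genes, and genes known as AP-1 targets. The lists were chosen with earlier results of these data known. Of 25 other bZIP genes 18 were tested and 0 were called, also with DESeq2 and limma-voom, and 1 was called without Ncr1+/+ replicate 3 or 4. As 0.733% of all tested genes were called, 0 calls would be usual in a list this short. At an unadjusted p below 0.05 in edgeR, 5 of the 18 were lower and 2 higher, where 5.91% of all tested genes were lower. The adjusted p was passed by 1 of the 18, against 1.35% of all tested genes, and the median log2 fold change was -0.03. The one that passed was *Maf*, a large Maf protein that drives cytokine genes in lymphocytes, with 105 to 137 CPM in Ncr1+/+ and 82.5 to 94.97 CPM in Ncr1gfp/gfp libraries, ranges that did not overlap (log2 fold change -0.48, adjusted p of 0.00126 in edgeR).

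The MAP kinase and SRF genes that act upstream of *Fos* and *Jun* were not called in edgeR, DESeq2 or limma-voom. Of 28 such genes 25 were tested, 0 passed an adjusted p of 0.05 in edgeR, 1 had an unadjusted p below 0.05, and the median log2 fold change was 0.01. Over all tested genes, 1.35% passed the adjusted and 11.4% the unadjusted p. As 0.733% were called, 0 calls would be usual in a list this short. The lowest p belonged to *Map3k8*, a kinase above ERK, with means of 67.0 ± 6.10 CPM in Ncr1+/+ and 55.7 ± 8.31 CPM in Ncr1gfp/gfp libraries (adjusted p of 0.245 in edgeR). The difference in *Srf*, the factor that binds the *Fos* promoter with Elk proteins, was -0.13 on the log2 scale (edgeR adjusted p of 0.514), and that in *Mapk9*, which encodes a Jun kinase, was 0.10 (adjusted p of 0.687).

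Most other immediate early genes had lower values in Ncr1gfp/gfp ILC1s. All 31 were tested: 2 were called, both lower, where 0.733% of all tested genes were called. The adjusted p was passed by 6, against 1.35% of all tested genes. At an unadjusted p below 0.05 in edgeR, 20 were lower and 1 higher, where 5.91% of all tested genes were lower. Log2 fold changes were below 0 for 27 of them, against 49.3% of all tested genes. The number called was 9 without Ncr1+/+ replicate 5, 4 without Ncr1gfp/gfp replicate 4 or Ncr1+/+ replicate 2, and 1 without Ncr1+/+ replicate 1. Over the 31 genes the median was -0.40 on the log2 scale, beside -0.39 for the 9 AP-1 genes. Both the list and the AP-1 genes were chosen with earlier results of these data known, so these values are a description. *Zfp36* (TTP, a protein that destroys short-lived transcripts with AU-rich ends) fell from 189 ± 51.6 to 126 ± 10.4 CPM (log2 fold change -0.58, adjusted p of 0.0179 in edgeR). *Socs3*, an inhibitor of cytokine receptor signalling, fell from 28.8 ± 4.51 to 16.9 ± 3.10 CPM (log2 fold change -0.76, adjusted p of 0.00404). *Sik1*, *Nfkbiz*, *Gadd45b* and *Nr4a3* passed the adjusted p with log2 fold changes of -0.51 to -0.44, and *Socs3* and these 4 genes did not overlap between the genotypes, which 1.82% of all tested genes did with a lower level.

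Genes known as AP-1 targets moved in both directions. Of 26 genes 22 were tested and 2 were called, both with lower levels, where 0.733% of all tested genes were called. At an unadjusted p below 0.05 in edgeR, 5 were lower and 3 higher, where 5.91% of all tested genes were lower. The median of the log2 fold changes was -0.09. The number called was 5 without Ncr1gfp/gfp replicate 4 and 1 without Ncr1+/+ replicate 3. *Mmp9*, a matrix protease, fell from 291 ± 53.9 to 180 ± 48.5 CPM (log2 fold change -0.70, adjusted p of 0.0163 in edgeR). *Il2ra*, the alpha chain of the IL-2 receptor, was the other, with 33.4 to 47.9 CPM in Ncr1+/+ and 14.3 to 20.9 CPM in Ncr1gfp/gfp libraries. *Gzmb*, which encodes granzyme B, and *Itgax*, which encodes CD11c, were higher at an adjusted p below 0.05 (log2 fold changes 0.55 and 0.28), and neither reached a fold of 1.5.

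Other immediate early genes and heat shock genes were compared with *Fos* by library. Summed over the list, the other immediate early genes had 5419, 4940, 4070, 4326 and 3519 CPM in Ncr1+/+ replicates 1 to 5 and 3432 to 3827 CPM in Ncr1gfp/gfp libraries, so replicates 1 and 2 were high and replicate 5 low there too. Centred by genotype, however, their mean log2 CPM had an r of 0.550 with *Fos*, which did not pass (adjusted p of 0.292, exact permutation). Without Ncr1+/+ replicates 1 and 2 it was 0.140. Taken separately, r was 0.912 in Ncr1+/+ and -0.351 in Ncr1gfp/gfp libraries, a difference that was not tested. Heat shock genes, which mark stress during dissociation among other things, summed to 1636 to 2696 CPM in Ncr1+/+ and 1290 to 2722 CPM in Ncr1gfp/gfp libraries, the highest being Ncr1gfp/gfp replicate 4, which also led its genotype for *Fos*, *Fosb* and *Jun*. Of 13 heat shock genes 12 were tested, 0 were called (2, *Hspa1a* and *Hspa1b*, without Ncr1gfp/gfp replicate 4), 0 passed the adjusted p in edgeR, 1 had an unadjusted p below 0.05, 11 had a log2 fold change below 0, and the median was -0.22. Over all tested genes, 0.733% were called, 1.35% passed the adjusted and 11.4% the unadjusted p, and 49.3% had a log2 fold change below 0. *Hspa1b*, an inducible HSP70 gene, ranged from 69.0 to 278 CPM in Ncr1+/+ and from 10.6 to 298 CPM in Ncr1gfp/gfp libraries (adjusted p of 0.478), and *Hspa1a* and *Hsp90ab1* had adjusted p-values of 0.527 and 0.225. The mean of the heat shock genes had an r of 0.613 with *Fos* within genotypes (unadjusted p of 0.0239, adjusted p of 0.0956, exact permutation), which did not pass, and of 0.864 without Ncr1+/+ replicates 1 and 2. The part of these genes in the *Fos* difference was not tested.

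Some transcripts used as markers of other cells were present in every library. The T cell list summed to 461 to 579 CPM in Ncr1+/+ and 633 to 835 CPM in Ncr1gfp/gfp libraries without overlap, and most of it was *Cd3g*. Of the 8 genes with a row, 5 were tested, and 3 passed the adjusted p, *Cd3g*, *Cd3e* and *Cd8a*, all higher in Ncr1gfp/gfp libraries. Hepatocyte markers summed to 136 to 184 CPM in Ncr1+/+ and 123 to 226 CPM in Ncr1gfp/gfp libraries, highest in Ncr1+/+ replicate 1 and Ncr1gfp/gfp replicate 3, and most of the sum was *Trf*, with 120 to 146 CPM in the libraries. Without both of these libraries the *Fos* log2 fold change was -0.88 and its adjusted p 0.218 in edgeR. NK cell markers summed to 384 to 437 CPM in Ncr1+/+ and 402 to 458 CPM in Ncr1gfp/gfp libraries, most of it *Prf1*, and 0 of 8 tested were called in edgeR (1 at an unadjusted p below 0.05). Endothelial markers summed to 119 to 154 and 133 to 155 CPM, most of it *Pecam1*, and *Eng* was called lower in Ncr1gfp/gfp libraries without overlap (8.26 against 3.81 CPM, adjusted p of 0.0277 in edgeR), while *Lyve1* was at 0 in all 10. Macrophage markers summed to 10.6 to 74.2 and 7.59 to 51.7 CPM, with 0 of 8 tested called in edgeR (0 at an unadjusted p below 0.05). For these marker lists, the shares over all tested genes were 0.733% called, 1.35% past the adjusted and 11.4% past the unadjusted p. B cell markers summed to 0.561 to 6.04 and 2.49 to 5.03 CPM, with *Cd79b* detected in all 10 libraries and *Pax5* at 0 in 9, and neutrophil markers to 0 to 0.8 and 0 to 15.7 CPM. The part of transcripts of other cells in the AP-1 values was not tested.

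**Figure D5:**
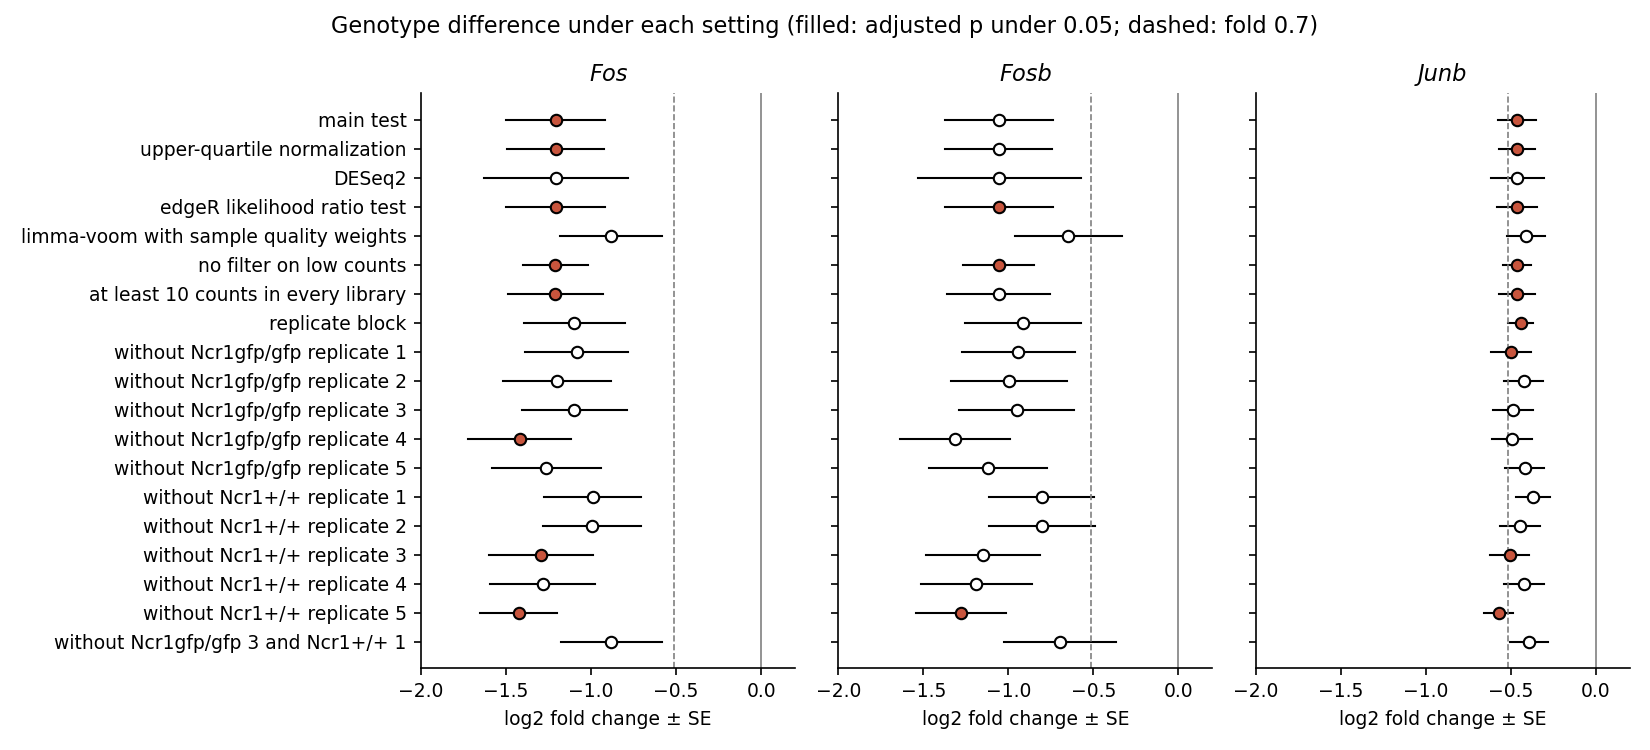
Log2 fold change with its SE (horizontal axes, Ncr1gfp/gfp minus Ncr1+/+) of *Fos*, *Fosb* and *Junb* under each setting of the analysis, from the edgeR test over all libraries at the top to the fits that leave out libraries. Filled points have an adjusted p below 0.05, and the dashed line marks a fold of 0.7. All points lie below 0, and the filled points of *Fos* and *Junb* change with single libraries.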

How the data were processed

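Per the methods of the study, the authors trimmed single-end reads with Trimmomatic and FASTP, aligned them to mm10 with STAR, and obtained gene counts with HTSeq. The deposited table holds these raw counts, not normalized, for 10 libraries, and names no genome build. No library column was left unused.

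The counts were tested in R 4.3.3 with edgeR 4.0.16 (filterByExpr, TMM, glmQLFit and glmQLFTest, Ncr1gfp/gfp against Ncr1+/+) over the whole table, with Benjamini-Hochberg adjustment over 11463 genes. Called genes had an adjusted p below 0.05 and a fold above 1.5 or below 0.7, the study's limits. The SE was taken from the fold change and the F statistic of the edgeR test, and 95% intervals used 20.5 degrees of freedom. In edgeR each gene's variance is drawn toward that of other genes. SE and interval therefore do not rest on the gene's own spread between libraries alone. CPM used TMM factors, and log2 CPM for correlations a prior count of 2. The procedure was tested on simulated counts. DESeq2 1.42.0, limma 3.58.1, other filters and limits, and leaving out each library served as alternatives.

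The members and gene lists were chosen with earlier results of these data known. Named genes were all members, the called genes of each list or otherwise those with an adjusted p below 0.05, or else up to 3 with the lowest p, and the 5 genes most like *Fos*. *Dusp1* is named as one of these. All 20 pairs of libraries of one genotype differed beyond sampling noise, so none was counted as a duplicate. Coordinates are as deposited. SMART-Seq does not mark strand, so reads of overlapping genes on opposite strands cannot be told apart, but no member overlaps another gene in the table.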

Additional observations from a re-analysis of the deposited data

Results flagged for a closer look

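Among 5 libraries of a genotype, a value was marked where its gap to the nearest library exceeded Dixon's limit of 0.71 of the range. Of 40 groups of values examined 3 passed, and chance alone would give about 2. None of the AP-1 genes was among them. This measure cannot mark a pair of libraries that lie beside each other, as Ncr1+/+ replicates 1 and 2 do for *Fos* and *Fosb*, so it says nothing about that pair.

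The summed level of upstream kinases and SRF factors was 3454 CPM in Ncr1+/+ replicate 1, the lowest of its genotype, with the nearest library at 3526 CPM. Hepatocyte markers summed to 184.2 CPM in the same library, with the nearest at 146.4 CPM. They summed to 226.3 CPM in Ncr1gfp/gfp replicate 3, with the nearest at 147 CPM. Ncr1+/+ replicate 1 had the highest *Fos*, *Jun* and *Junb* of all 10 libraries, and Ncr1gfp/gfp replicate 3 the lowest *Jun* of its genotype.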

How the results depend on the processing

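Over 179 results of single AP-1 genes under alternative settings 0 reversed direction and 163 kept their side of the threshold. Of the rest, 11 lost a call, all for *Fos*, and 5 gained one, for *Fosb* and *Junb*. The settings that only changed the fold limit reused the main fit, so direction could not reverse in them. Of the AP-1 genes, 0 were called with DESeq2, limma-voom or the replicate block, and also 0 without Ncr1gfp/gfp replicate 3 and Ncr1+/+ replicate 1, an alternative chosen after seeing the data. With the edgeR likelihood ratio test or no filter on low counts 2 were called (*Fos* and *Fosb*), and with no fold limit 2 (*Fos* and *Junb*). Leaving out single libraries gave 0 to 3, with 3 (*Fos*, *Fosb*, *Junb*) only without Ncr1+/+ replicate 5. Over all genes, 138 were called with the likelihood ratio test, 131 without the filter, 23 at an absolute log2 fold change above 1, 155 with no fold limit and 60 to 98 with single libraries left out. The causes were not tested.

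Other immediate early genes called numbered 5 with the likelihood ratio test, 7 without the filter, 5 with at least 10 counts in every library, 0 above a log2 fold change of 1, 6 with no fold limit and 1 to 9 with single libraries left out, 9 without Ncr1+/+ replicate 5 and 1 without Ncr1+/+ replicate 1. Other bZIP genes numbered 1 with no fold limit and 0 to 1 with libraries left out. Known AP-1 targets numbered 1 above a log2 fold change of 1, 4 with no fold limit and 1 to 5 with libraries left out, and heat shock genes 0 to 2, with 2 (*Hspa1a* and *Hspa1b*) without Ncr1gfp/gfp replicate 4. The filter of 10 counts in every library removed *Atf3*.

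Replicate numbers did not pair the libraries: deviations of same-numbered libraries correlated at -0.02 to 0.04, and 1 of 10 libraries correlated best with its own number. With the replicate number as a block, the *Fos* log2 fold change was -1.10 (adjusted p of 0.0966 in edgeR), 87 genes were called over the table, and 5 other immediate early genes. At this depth levels below 0.132 to 0.190 CPM, or 3 counts, could not be measured, which covered most libraries of *Batf3* but no other member.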
